A study of Mus musculus with 11 samples.

Results

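The cytosolic ribosomal protein genes of mouse were examined in microglia, the resident macrophages of the brain. They were taken by symbol, as every gene named Rpl or Rps followed by a number, with or without a closing a, x or l, together with Rpsa, Rplp0, Rplp1 and Rplp2. The reference table of mouse genes held 83 such symbols, 74 of them had a probe matched through its RefSeq accession, and 73 passed the filter on dim probes out of 19555 genes tested in all. These 73 comprised 46 genes of the large subunit and 27 of the small subunit, and 62 of them rested on 1 probe. The small subunit genes include Rps4l, which is annotated as a transcribed pseudogene. Rpl3l, a form of Rpl3 made in muscle, was removed by the filter. The other 9 symbols, among them Rpl23a, Rpl36, Rpl38 and Rps27l, had no matched probe and were not analysed here. The choice of genes used no measured value.

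Expression was measured on 11 single-colour arrays of RNA from C57BL/6N mice. Adult microglia of females aged 12 to 24 weeks (A_FACS, 2 arrays) and microglia of newborns of both sexes at postnatal day 1 to 3 (NB_FACS, 3 arrays) were sorted by flow cytometry as cells with intermediate CD45 and high CX3CR1, without inhibitors of transcription. The cultured groups came from flasks of pooled newborn brains, kept for weeks and fed with medium conditioned by L-929 fibroblasts. Microglia were then shaken off and kept for 1 further day in medium with serum. They received no cytokine (NB_Control, 3 arrays) or 100 ng/mL each of human TGF-β1, human IL-34 and human CX3CL1 (NB_Stim, 3 arrays). Adult and newborn cells therefore differed in sex as well as in age. Cultured and sorted cells differed in the weeks spent in flasks and in the way they were isolated, as well as in the last day of culture. The study names its replicates independent biological samples, and the p-values measure the spread between these arrays.

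Ribosomal proteins clothe the ribosomal RNA of the small and the large subunit, and their messages are among the most abundant of any cell. Their transcripts typically open with a C followed by a run of pyrimidines, the TOP motif, through which the growth kinase mTOR and the protein LARP1 set their translation and stability. Ribosome production is known to run high in growing and dividing cells. Arrays measure the amount of RNA and not its translation.

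The TOP motif is visible in the 30 bases around the annotated start of several genes on which the results turn. They are shown with capitals for the run of C and T that begins at the start itself, from RefSeq on GRCm38.p6. Rpl15 lies at chr14:18270972-18271001 on the minus strand, Rps6 at chr4:86857353-86857382 (minus), Rps18 at chr17:33955651-33955680 (minus), Rplp2 at chr7:141447636-141447665 (plus) and Rpl35 at chr2:39005117-39005146 (minus). Rpl37 at chr15:5116598-5116627 (plus) and Rplp0 at chr5:115559452-115559481 (plus) are given beside them because their annotated start holds no such run.
Rpl15: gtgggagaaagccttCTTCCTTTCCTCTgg
Rps6: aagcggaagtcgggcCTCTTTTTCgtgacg
Rps18: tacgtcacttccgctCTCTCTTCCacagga
Rplp2: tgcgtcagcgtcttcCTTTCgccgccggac
Rpl35: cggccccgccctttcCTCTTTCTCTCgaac
Rpl37: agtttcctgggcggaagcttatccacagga
Rplp0: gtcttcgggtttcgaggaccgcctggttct

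Windows reaching from 250 bases before to 50 bases after the start were at hand for 56 of the 73 genes and for 14973 of all genes tested. A C at the start itself followed by at least 4 C or T was found in 12 of the 56 (21.4%) and in 2.95% of all windows. A C followed by at least 7 C or T within 50 bases of the start was found in 48 (85.7%) and in 32.3% of all. CCGGAAG, the core bound by ETS factors, was found on either strand in 22 (39.3%) against 13.9%. CACGTG, the E-box bound by MYC among others, was found in 6 (10.7%) against 9.52%, and TATAAA within 50 bases of the start in 3 (5.36%) against 3.93%, so that these motifs were about as common in ribosomal protein genes as in all genes.

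On the single arrays, between 66.8% and 80.4% of all probes exceeded background clearly by the scanner's flag, no spot was saturated, and all 73 genes had a probe well above background on every array. Slide 2 held replicate 3 of each newborn group and slide 1 the other 8 arrays. Of 13 microglia markers 12 were tested, none at background in any group, and the log2 of their summed signal was 19.06 to 19.09 in A_FACS, 18.66 to 18.68 in NB_FACS, 17.86 to 18.16 in NB_Control and 18.56 to 18.67 in NB_Stim. The number of arrays limits the precision of every value. Values below are quantile normalised log2 intensities, differences are on the log2 scale, and called genes are those with an adjusted p under 0.05 in limma's moderated two-sided test.

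Ribosomal protein genes lay near the top of the scale on every array. The brightest of them was always Rplp1, at 16.41 to 16.78, while the brightest probe of each array stood at 17.31 after normalisation. Between 45 and 52 of the 73 genes lay among the brightest 5% of genes. Among the brightest 1%, which is 196 genes, there were 18 and 25 of them on the adult arrays, 34 on each NB_FACS array, 25 to 31 in NB_Control and 35 to 36 in NB_Stim. Brightness depends on each probe as well as on the RNA, so that these ranks do not order the genes by abundance.

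The typical level of the group differed between the samples. The median over the 73 genes was 13.18 and 13.54 on the A_FACS arrays, 14.11, 14.19 and 14.31 in NB_FACS, 13.71, 13.88 and 14.00 in NB_Control, and 14.19, 14.18 and 14.34 in NB_Stim. Both adult arrays lay below every newborn array, adult replicate 1 lowest, and every NB_Control array lay below every NB_FACS and NB_Stim array. Before any scaling, these genes held 2.68% and 3.21% of all probe signal in A_FACS, 4.35% to 4.76% in NB_FACS, 3.78% to 3.94% in NB_Control and 4.38% to 4.98% in NB_Stim, again with A_FACS lowest and NB_Control next. In bulk samples, fewer cells of a type and less RNA per cell cannot be told apart.

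**Figure D1:**
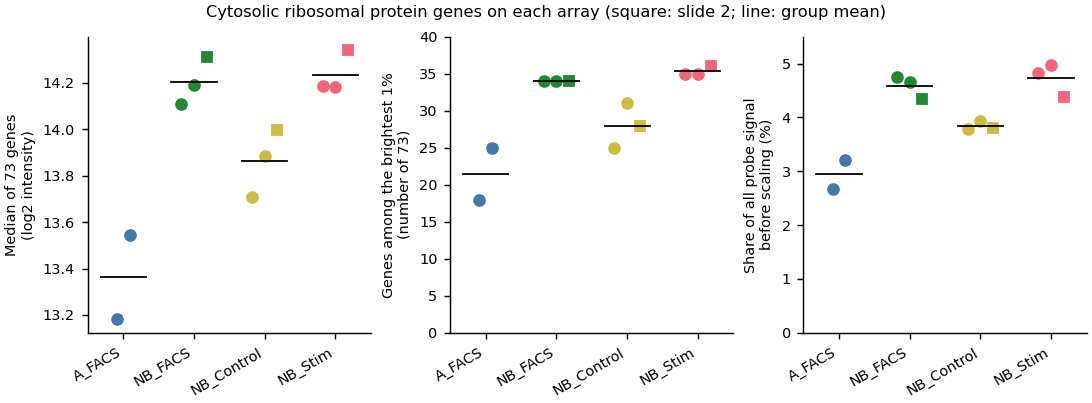
Each point is 1 array, squares mark slide 2 and lines the group means, for the median log2 intensity of the 73 genes, the number of them among the brightest 1% of genes and their share of all probe signal before scaling in percent. The adult arrays lie lowest in the left and right panels, with medians of 13.18 and 13.54 and shares of 2.68% and 3.21%. In the middle panel adult replicate 2 ties with NB_Control replicate 1 at 25 genes. NB_FACS and NB_Stim lie highest in each panel.

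By the F test over the 4 groups, 45 of the 73 genes (61.6%) were called, beside 48.8% of all genes tested. The group mean was lowest in A_FACS for 64 genes, in NB_Control for 5 and in NB_Stim for 4. It was highest in NB_FACS for 35 genes, in NB_Stim for 31, in NB_Control for 4 and in A_FACS for 3. The order A_FACS, NB_Control, NB_Stim, NB_FACS from low to high was the most frequent, with 26 genes, followed by the order with NB_Stim above NB_FACS, with 22.

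The comparison of adult with newborn sorted cells asked how the age of the animal goes with expression. Ribosomal protein genes were lower in the adult cells: 38 of the 73 were called lower and 0 higher, while 12.9% of all genes were called lower and 9.75% higher. Before adjustment 56 of the 73 and 6867 of all genes had a p under 0.05. The median difference was -0.62 over the 73 genes and -0.01 over all genes, and 70 of the 73 differences were negative. The differences of the 38 called genes ran from -1.51 to -0.51. Both subunits shared this, with 25 of 46 large subunit genes (median -0.63) and 13 of 27 small subunit genes (median -0.59) called lower. On slide 1 alone, which held the adult arrays, the median was -0.61. The count of lower genes was 16 without adult replicate 1, beside 7.21% of all genes, with a median of -0.45 beside -0.01 over all genes, and 44 was its highest value when single arrays were left out.

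Other genes moved between these groups in the same libraries. All 12 tested proliferation genes were dimmer on average in A_FACS, 11 of them called, and their log2 summed signal was 13.29 to 13.31 in A_FACS against 15.55 to 15.80 in NB_FACS. Of 7 border macrophage genes 6 were called lower in A_FACS (sums 8.17 to 9.60 against 13.48 to 13.79), and of 7 erythroid genes 4 (13.08 to 14.64 against 17.18 to 17.65), each of these genes with a probe above background in both groups. Their part in the difference of the ribosomal protein genes was not tested.

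Rpsa, a small subunit protein also known as the laminin receptor, was 10.57 and 11.12 on the adult arrays and 12.06, 12.10 and 12.29 in NB_FACS, a difference of -1.30 (SE 0.18, adjusted p 0.000844). Its newborn cultured arrays ranged from 11.75 to 12.20, so that both adult arrays stood below all newborn arrays by more than the spread within any group. Rpl17, a large subunit protein beside the mouth of the exit tunnel, was 8.43 and 8.96 in A_FACS and 9.95, 10.21 and 9.96 in NB_FACS (difference -1.35, adjusted p 0.00169). Rpl21, of the large subunit, was 6.10 and 6.77 against 7.38, 7.64 and 8.10 (difference -1.28, adjusted p 0.00609), and missed the threshold without adult replicate 1 (-0.94, adjusted p 0.0654). Adult and newborn sorted arrays stood apart for each of these genes.

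Rpl39, a very small protein that lines the exit tunnel, showed the most negative difference of the 73, -1.51 (SE 0.34, adjusted p 0.0116). Its probe was dim, at 3.74 and 4.32 in A_FACS and 4.91, 5.46 and 6.26 in NB_FACS, and the call was lost without adult replicate 1 (-1.22, adjusted p 0.108). Rpl41, which encodes the smallest protein of the ribosome, was bright and spread widely between the adult arrays, at 13.04 and 14.12, below 14.60, 14.60 and 14.76 in NB_FACS (difference -1.07, adjusted p 0.0212). Without adult replicate 1 its difference was -0.53 (adjusted p 0.163). The low value of Rpl41 in the adult group thus rested largely on 1 array.

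Of the 2 stalk proteins P1 and P2 and their anchor P0, which recruit the elongation factors to the ribosome, only Rplp2 was called. Rplp2 was 12.45 and 12.77 in A_FACS and 13.51, 13.36 and 13.59 in NB_FACS (difference -0.88, adjusted p 0.00268), the adult arrays below all newborn arrays. Rplp0 was 15.80 and 15.89 against 16.23, 16.15 and 16.35 (difference -0.40, adjusted p 0.0674). Rplp1 was 16.41 and 16.60 against 16.70, 16.78 and 16.60 (difference -0.19, adjusted p 0.38), with the groups touching. Whether the differences of these stalk genes differ from each other was not tested.

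Several genes known from Diamond-Blackfan anaemia, an inherited failure of red cell production caused by loss of 1 copy of a ribosomal protein gene, were in the fixed list. Rps19, of the small subunit, was 4.49 and 3.61 in A_FACS and 5.11, 5.40 and 5.28 in NB_FACS on a dim probe (difference -1.21, adjusted p 0.0151). Without adult replicate 2 this difference was -0.77 (adjusted p 0.125). Rps24 was 11.59 and 12.06 against 12.50, 12.79 and 12.84 (difference -0.89, adjusted p 0.00702), and the means of its 3 probes were all lower in A_FACS. Without adult replicate 1 it was -0.65 (adjusted p 0.0703). Rpl5 and Rpl11, which carry the 5S RNA into the ribosome and can bind Mdm2 when assembly fails, were not called (-0.47, adjusted p 0.164, and 0.12, adjusted p 0.696). The value of Rpl11 averages a bright probe at -0.54 (adjusted p 0.0914) and a dim probe of a predicted transcript at 0.79 (adjusted p 0.0962).

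Among genes often used as references for normalisation, Rps18 was called lower in A_FACS, at 15.29 and 15.70 against 16.25, 16.31 and 16.00 in NB_FACS (-0.69, adjusted p 0.0185). Without adult replicate 1 it was -0.48 (adjusted p 0.161). Rps29 (-0.35, adjusted p 0.0954) and Rpl13a (-0.82, adjusted p 0.0513) missed the threshold, and Rps29 spread little, at 16.08 and 16.09 against 16.47, 16.41 and 16.44. Rps6, the small subunit protein phosphorylated by S6 kinase below mTOR, missed it as well (-0.43, adjusted p 0.0507). The adult arrays of Rps29 and Rps6 both lay below all NB_FACS arrays. With the replicate block all 3 were called lower, Rps29 by -0.40 (adjusted p 0.033), Rpl13a by -0.68 (adjusted p 0.018) and Rps6 by -0.47 (adjusted p 0.0201).

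**Figure D2:**
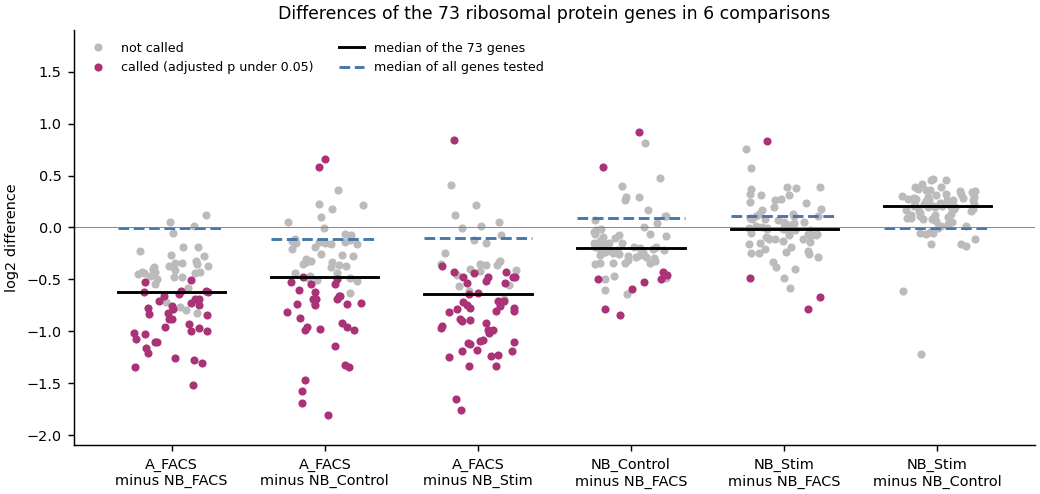
Each point is 1 of the 73 genes and its log2 difference in 1 of 6 comparisons, coloured where called at an adjusted p under 0.05, with the median of the 73 genes (solid line) and of all genes tested (dashed). The 3 comparisons of adult with newborn cells have medians of -0.62, -0.48 and -0.64, and no gene was called between NB_Stim and NB_Control.

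Adult cells were also set against the cultured newborn cells, in comparisons that share the A_FACS arrays with the one above. Against NB_Control, 31 genes were called lower (all genes 23.2%) and 2 higher (all genes 17.7%), with a median of -0.48 against -0.11 over all genes. Against NB_Stim, 48 were called lower (all genes 22.8%) and 1 higher (all genes 17.5%), with a median of -0.64 against -0.10. The differences of the lower genes ran from -1.81 to -0.48 against NB_Control and from -1.76 to -0.37 against NB_Stim. Of the large subunit genes 23 were lower against NB_Control and 32 against NB_Stim, and of the small subunit genes 8 and 16. Slide 1 alone gave medians of -0.44 and -0.71. Without adult replicate 1, the lower counts were 13 and 23, beside 15% and 13.8% of all genes, so that the count against NB_Control lay near the background. The medians were then -0.27 and -0.50, beside -0.11 and -0.10 over all genes. Fibroblast markers moved with these comparisons too: all 8 were called lower in A_FACS, where their log2 sum was 12.55 to 13.07 and Col3a1 and Lum were not above background, against 15.39 to 15.63 in NB_Control and 14.65 to 15.76 in NB_Stim, and their part was not tested.

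Values against both cultured groups are given side by side because the adult arrays are shared. Rpl41 was 14.98, 15.12 and 15.04 in NB_Control and 15.30, 15.45 and 14.93 in NB_Stim, which made the adult difference -1.47 (adjusted p 0.00226) and -1.65 (adjusted p 0.00128). All 6 cultured arrays of Rpl41 exceeded all 3 NB_FACS arrays. Rpl39 differed by -1.81 (adjusted p 0.0023) and -1.76 (adjusted p 0.0029), Rps19 by -1.69 (adjusted p 0.00129) and -1.08 (adjusted p 0.0148), and Rpl35, a protein at the tunnel exit, by -0.98 (adjusted p 0.00308) and -1.33 (adjusted p 0.000576). Rpl35 was 9.65 and 10.09 in A_FACS and between 10.66 and 11.35 on all newborn arrays.

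Rpl13a, a large subunit protein that is also released from the ribosome in interferon-treated myeloid cells, was 11.10 and 11.76 in A_FACS, 12.14, 12.40 and 12.70 in NB_Control and 12.52, 12.43 and 12.91 in NB_Stim. It was called lower against both (-0.99, adjusted p 0.0144, and -1.19, adjusted p 0.00588), with the adult arrays below all cultured arrays. Rpl22, the gene whose paralog is Rpl22l1, was called lower against NB_Control (-0.60, adjusted p 0.0262) and NB_Stim (-0.89, adjusted p 0.0041) and had a difference of -0.50 against NB_FACS. Rpl36a was called lower in all 3 adult comparisons, by -0.79 against NB_FACS (adjusted p 0.0143), -0.54 against NB_Control (adjusted p 0.0408) and -0.97 against NB_Stim (adjusted p 0.00266). Its probe shares a run of 20 bases with probes of other accessions. The calls of Rpl36a against NB_FACS and NB_Control, of Rpl22 against NB_Control and of Rpl13a against both cultured groups were lost without adult replicate 1. Such a fit leaves 1 adult array, so a lost call does not show that a gene rested on replicate 1. The differences were then smaller. For Rpl36a they were -0.50 from NB_FACS, -0.26 from NB_Control and -0.68 from NB_Stim. From NB_Control and NB_Stim they were -0.32 and -0.61 for Rpl22, and -0.66 and -0.86 for Rpl13a.

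Rpl3 and Rps9 were the genes called higher in adult cells. Rpl3, a protein that reaches towards the peptidyl transferase centre, was 13.29 and 13.49 in A_FACS and 12.87, 12.99 and 12.56 in NB_Control (difference 0.58, adjusted p 0.0222), a call that was lost without either adult array (adjusted p 0.0508 and 0.126). Rps9, an early-binding protein of the small subunit, was called higher against NB_Control (0.66, adjusted p 0.0435) and NB_Stim (0.84, adjusted p 0.0161). Both calls were lost without either adult array (adjusted p 0.149 and 0.137 against NB_Control, 0.0772 and 0.0676 against NB_Stim). Its 2 probes disagreed. The probe of its coding accession was 11.30 and 11.38 in A_FACS and 11.30, 11.32 and 12.37 in NB_Stim (difference -0.33, adjusted p 0.568), whereas the probe of a noncoding accession was 10.14 and 10.09 against 8.14, 7.87 and 8.31 (difference 2.00, adjusted p 0.00108). The direction of Rps9 therefore held for the second probe alone. Rpl11 showed a like split, since its bright probe was not called in any comparison while a dim probe of a predicted transcript was higher in A_FACS than in NB_Control (1.14, adjusted p 0.014) and NB_Stim (1.30, adjusted p 0.00752).

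The comparison of cultured with sorted newborn cells asked how weeks in flasks, isolation by shaking and 1 further day in culture together go with expression. Few ribosomal protein genes were called: 2 were higher in NB_Control (all genes 15.8%) and 8 lower (all genes 13.9%), a share below the background for higher genes and near it for lower ones. The median difference was -0.20, beside 0.09 over all genes, and 60 of 73 differences were negative. The median was -0.19 on slide 1 and -0.19 on slide 2. With the replicate number as a block, 16 genes were called lower and 2 higher, beside 17.5% and 19.9% of all genes in that fit. Without single arrays the lower count ran from 4, without NB_FACS replicate 2 or NB_Control replicate 1, to 11. In NB_Control the erythroid sum was 8.32 to 8.36 with Hbb-bt and Alas2 not above background, all 12 proliferation genes were called lower (sums 13.29 to 13.92), and 6 of 8 fibroblast genes were called higher. Their part in the values of the ribosomal protein genes was not tested.

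Rpl3 fell most in culture. It was 13.71, 13.74 and 13.51 in NB_FACS and 12.87, 12.99 and 12.56 in NB_Control, a difference of -0.85 (SE 0.15, adjusted p 0.0023), and each of its 2 probes was called lower (-0.93, adjusted p 0.00532, and -0.77, adjusted p 0.00264). The probes are printed after this account because they read different stretches of the message, with no run longer than 4 bases in common. The probe of 50 bases shares a run of 20 bases with a probe of another accession. In NB_Stim it was 13.34, 13.36 and 13.10, above every NB_Control array and below every NB_FACS array. Rpl10a, the protein of the mobile L1 stalk, was 15.81, 16.01 and 15.86 in NB_FACS, 15.15, 15.28 and 14.89 in NB_Control and 15.33, 15.26 and 15.08 in NB_Stim. It fell in both cultured groups (-0.79, adjusted p 0.00432, and -0.67, adjusted p 0.01), with no overlap with NB_FACS.
Rpl3 probe of 48 bases: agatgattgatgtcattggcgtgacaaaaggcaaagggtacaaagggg
Rpl3 probe of 50 bases: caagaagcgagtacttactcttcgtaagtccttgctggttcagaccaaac

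Rpl12, at the base of the P stalk, was lower in NB_Control by -0.60 (adjusted p 0.0268), Rps7 by -0.52 (adjusted p 0.0199) and Rps6 by -0.43 (adjusted p 0.0265). Rps6 was 14.77, 14.79 and 14.73 in NB_FACS, 14.38, 14.46 and 14.15 in NB_Control and 14.65, 14.75 and 14.65 in NB_Stim, so that among the newborn groups NB_Control stood apart. Rps7 was 7.56, 7.77 and 7.79 in NB_FACS and between 7.07 and 7.39 on all 6 cultured arrays, without overlap. The other 3 genes called lower differed by -0.50 to -0.45.

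Rpl15 and Rpl37, both of the large subunit, went the other way. Rpl15 was 10.08, 10.19 and 10.22 in NB_FACS, 10.77, 10.79 and 10.67 in NB_Control and 10.99, 10.94 and 11.05 in NB_Stim, with A_FACS below at 9.53 and 9.97. It rose in NB_Control by 0.58 (adjusted p 0.00976) and in NB_Stim by 0.83 (adjusted p 0.00131), and the 4 groups did not overlap anywhere in this order. Rpl37 was 7.05, 7.10 and 6.57 in NB_FACS and 7.96, 7.91 and 7.59 in NB_Control (difference 0.92, adjusted p 0.0242). In NB_Stim it was 7.88, 8.05 and 7.04, with the slide 2 array lowest in each newborn group. The call of Rpl37 was lost without NB_FACS replicate 3 and without NB_Control replicate 1 or 2.

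**Figure D3:**
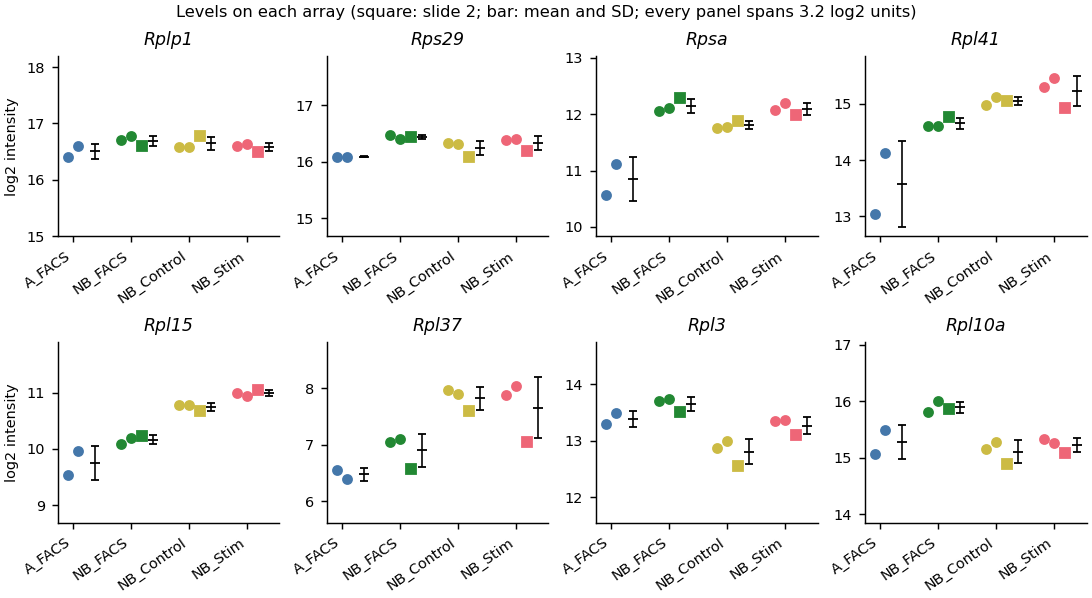
Each panel shows the log2 intensity of 1 gene on the 11 arrays by group, with the mean and SD beside the points and squares for slide 2. Rplp1 and Rps29 sit near the top of the scale with small differences, Rpsa and Rpl41 are lowest in A_FACS, Rpl15 and Rpl37 are higher in culture and Rpl3 and Rpl10a lower.

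The comparison of stimulated with unstimulated cultures asked what the 3 cytokines change. By limma 0 of the 73 genes were called higher and 0 lower, while 1.4% of all genes were called higher and 2% lower, and before adjustment 11 of the 73 and 2969 of all genes had a p under 0.05. The median difference was 0.21, beside -0.0008 over all genes, and 62 of 73 differences were positive. Scaled to the 75th percentile in place of quantiles, the median was 0.12, beside 0.03 over all genes. In the quantile fit it was 0.22 on slide 1, with 66 genes positive, and 0.16 on slide 2, with 56. With the replicate number as a block 1 gene was called, Rpl3, higher in NB_Stim by 0.46 (adjusted p 0.0363), beside 2.46% of all genes called higher and 3.64% lower. Of the fixed genes, Rplp2 differed by 0.30 (adjusted p 0.331), Rps6 by 0.35 (adjusted p 0.202) and Rpl39l by -1.22 (adjusted p 0.2). The small positive values were thus spread over many genes, none of which passed the test alone without the block.

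NB_Stim was last set against NB_FACS, which asked how far stimulated cells stood from sorted newborn cells. Here 1 gene was called higher (all genes 16%) and 3 lower (all genes 15.1%), both shares below the background. The higher gene was Rpl15 and the lower genes were Rps9 (-0.78, adjusted p 0.016), Rpl10a and Rps7 (-0.49, adjusted p 0.027). The median over the 73 genes was -0.02, with 33 positive and 40 negative, and it was 0.01 on slide 1 and -0.10 on slide 2. With the replicate number as a block, 4 genes were higher, Rpl15, Rpl22, Rpl31 and Rpl37, and 6 were lower, Rpl10a, Rpl21, Rpl3, Rps4l, Rps7 and Rps9, beside 21.2% and 18.9% of all genes. Rps9 was lower by the probe of its noncoding accession (-1.33, adjusted p 0.00688) and not called by the other (-0.24, adjusted p 0.673).

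Paralogous pairs were compared by their own differences, since levels of different probes cannot be set against each other. Rpl39l, known from testis as the stand-in for Rpl39, was 5.05 and 6.61 in A_FACS, 6.23, 6.58 and 6.96 in NB_FACS, 7.16, 7.68 and 7.37 in NB_Control and 6.74, 6.40 and 5.42 in NB_Stim. Its highest arrays were those of NB_Control, and it was called only against A_FACS (adult difference -1.58, adjusted p 0.0257), a call that was lost without adult replicate 1 (-0.80, adjusted p 0.269). Rpl10, an X-linked gene whose protein completes the large subunit, had adult differences of -0.05, 0.23 and -0.0005 from NB_FACS, NB_Control and NB_Stim, and was not called in any comparison. Rpl10l, its retrogene, was 11.51 to 11.65 on both adult arrays and the first 2 NB_FACS arrays but 12.74, 12.53 and 12.67 on the slide 2 arrays of the newborn groups, so that slide spread exceeded group differences.

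Rps4x, the X-linked form of the small subunit protein S4, varied little, with group means of 14.78 in A_FACS, 15.12 in NB_FACS, 14.91 in NB_Control and 15.11 in NB_Stim, and was not called in any comparison. Rps4l, annotated as a transcribed pseudogene, was not called without the replicate block. Its slide 2 arrays were lowest in each newborn group, at 10.31, 9.73 and 9.53. With the block it was lower than in NB_FACS both in NB_Stim (-0.48, adjusted p 0.0167) and in A_FACS (-0.63, adjusted p 0.0139). Rps27 differed by -0.19 and Rps27a, which is made as a fusion with ubiquitin, by -0.59 between A_FACS and NB_FACS, neither called (adjusted p 0.38 and 0.108).

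Because the arrays were forced to 1 common distribution, values at its top could differ little, and the same comparison was made after scaling each array to its 75th percentile. Between A_FACS and NB_FACS the median over the 73 genes moved from -0.62 to -0.89, and the genes called lower from 38 to 57, beside 13.1% of all genes. Against NB_Control the median moved from -0.48 to -0.70 and the lower genes from 31 to 45 (all genes 21.8%), and against NB_Stim from -0.64 to -0.79 and from 48 to 56 (all genes 20%). For the 24 brightest genes the adult difference from NB_FACS moved from -0.53 to -0.86, for the 24 in the middle from -0.71 to -0.97 and for the 25 dimmest from -0.50 to -0.66. The median of all genes stayed near 0 under both scalings (-0.01 and 0.03).

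The 3 brightest genes kept high ranks on every array. Rplp1 ranked between 7 and 16 of all genes on every array, Rps29 between 11 and 28 and Rplp0 between 14 and 45, the highest rank number of each being on an adult array. Under the 75th percentile the adult difference from NB_FACS was -0.31 for Rplp1 (adjusted p 0.237), -0.53 for Rps29 (adjusted p 0.0253) and -0.65 for Rplp0 (adjusted p 0.0143). Rps29 and Rplp0 were thus called under that scaling and not under quantile normalisation, and Rplp1 under neither. The raw signal of Rplp1 was 8.21% to 23.3% of the scanner's saturation value, below the scanner's limit on every array.

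**Figure D4:**
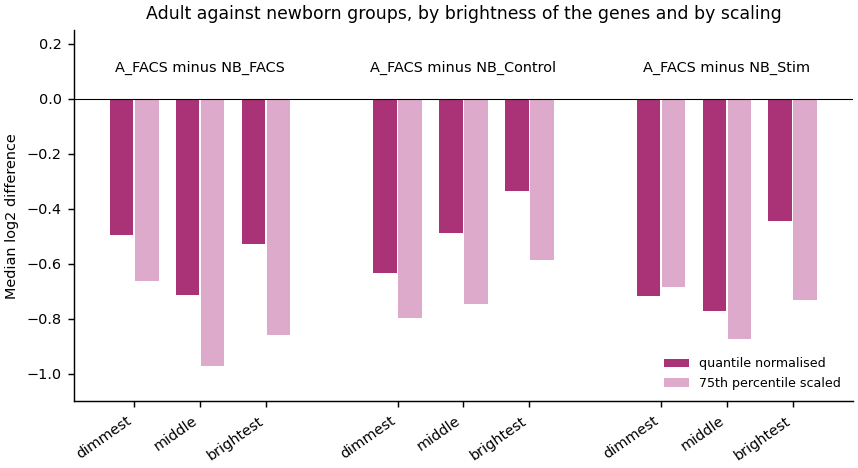
Bars give the median log2 difference of A_FACS from each newborn group over the 25 dimmest, 24 middle and 24 brightest of the 73 genes, after quantile normalisation (dark) and after scaling to the 75th percentile (light). The light bar is the longer for the middle and the brightest genes in all 3 comparisons, for example -0.86 against -0.53 for the brightest from NB_FACS. For the dimmest genes it is the longer from NB_FACS and NB_Control but not from NB_Stim (-0.68 against -0.72).

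The TOP start and the choice of probes were set beside these differences. The 12 genes with a pyrimidine run at the annotated start had a median adult difference from NB_FACS of -0.69, with 8 called lower, and the 44 others with a window -0.62, with 22 called lower. In NB_Control against NB_FACS the medians were -0.20 and -0.16. Since 48 of the 56 windows held a pyrimidine run within 50 bases of the start, this split follows the annotated start. It cannot show an effect of the motif. Of the 87 probes behind the 73 genes, 9 shared a run of 20 bases with a probe of another gene or accession, and how far processed pseudogenes add to these probes was not tested.

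Other genes of protein synthesis were counted as lists beside the ribosomal protein genes. Of all genes tested, 12.9% were called lower and 9.75% higher in A_FACS against NB_FACS. The shares were 13.9% and 15.8% in NB_Control against NB_FACS, and 15.1% and 16% in NB_Stim against NB_FACS. The 69 mitochondrial ribosomal protein genes, whose products translate the mitochondrial genome, had 38 lower and 1 higher in A_FACS against NB_FACS (median -0.60), close to the cytosolic genes. In NB_Control against NB_FACS they had 22 higher and 1 lower (median 0.34), where the cytosolic genes had 2 higher and 8 lower (median -0.20). Of 30 ribosome assembly genes, which make and trim ribosomal RNA in the nucleolus, 18 were lower and 1 higher in NB_Control against NB_FACS (median -0.59), 20 lower in NB_Stim against NB_FACS (median -0.78), and 11 lower in A_FACS against NB_FACS (median -0.37).

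Among 19 other TOP transcripts, such as those of elongation factors, 7 were lower in A_FACS than in NB_FACS and 2 higher, and 7 were lower in NB_Control. Of 21 initiation factor genes 6 were lower and 1 higher in A_FACS, and 6 were lower in NB_Control. Beside both lists, 12.9% of all genes were lower and 9.75% higher in A_FACS, and 13.9% were lower in NB_Control. Among further ribosomal proteins whose symbols the rule leaves out, Rpl36al (-0.75, adjusted p 0.0116) and Rack1 (-0.69, adjusted p 0.0213) were lower in A_FACS than in NB_FACS. Fau (-0.34), Rps3a1 (-0.40), Rpl7l1 (0.19) and Rpl22l1 (-0.22) were not called there. The counts describe each list, and whether lists differ from each other was not tested.

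**Figure D5:**
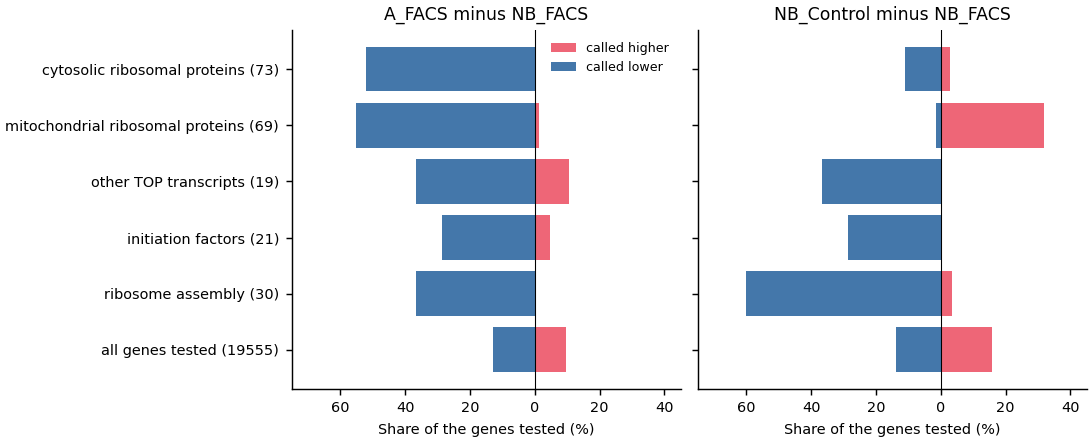
Bars give the share of each list's tested genes called lower (to the left) and higher (to the right) in percent, for A_FACS minus NB_FACS and NB_Control minus NB_FACS, with all 19555 genes below. Cytosolic and mitochondrial ribosomal protein genes each have 38 genes lower in adult cells, and in culture 22 mitochondrial genes are higher while 18 ribosome assembly genes are lower.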

How the data were processed

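RNA of 11 microglia samples was measured on single-colour arrays. The authors deposited scanner files with 1 background-subtracted signal intensity per spot, made by Feature Extraction 11.5.1.1 per the file headers (version 11 in the submitters' processing notes), and a series-wide list of intensity values whose 62927 entries differed from the scanner files in 0 values (relative tolerance 1e-05). The log2 values are of the deposited intensities. The study's methods name quantile normalisation, which was followed.

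Probes were named through RefSeq accessions and a list of mouse genes on GRCm38.p6: 36264 of 60037 probes (60.4%) matched. Spots of a probe were averaged without outlier spots, which dropped 138 probes. Signals were quantile normalised on the log2 scale, probes well above background on every array of a group were kept (44727, of which 28027 had a symbol) and averaged to 19555 genes. All 11 arrays were fitted in limma 3.58.1 (R 4.3.3, with the package data.table, version 1.17.8) with 1 mean per group, 7 residual and 2.69 prior degrees of freedom, and p-values were adjusted over all genes by the Benjamini-Hochberg method. The steps were tested on simulated data. Python 3.11.15, numpy 2.4.6 and matplotlib 3.10.9 were used for sequences and figures.

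Genes named were a fixed list of members and related genes, the 4 largest rises and falls among called members of each comparison, the 3 brightest members, and members whose probes disagree. The genes, lists and this rule were chosen with earlier results of these data known. The main fit held no block for replicate or slide, so that its spread includes any difference between slides. Replicate numbers from the sample titles formed the block of an alternative fit. The deviations of same-numbered newborn arrays from their group means correlated at 0.11 to 0.49, all above 0.1. Replicate 3 coincides with slide 2, and differently numbered newborn arrays of slide 1 correlated at 0.19 to 0.36, so number and slide cannot be told apart. Adult arrays did not pair. Alternatives were the 75th percentile, normexp with an offset of 50, other filters and probe rules, replicate and slide blocks, fits of the 2 groups compared, Tukey's test, averaging of cultured replicates 1 and 2, a required difference of 1, and single arrays left out. Some single genes are not reported here.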

Additional observations from a re-analysis of the deposited data

How the results depend on the processing

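The direction of the median over the ribosomal protein genes held under the alternatives run in 5 of 6 comparisons. For NB_Stim minus NB_FACS it turned positive without NB_FACS replicate 2 (0.043) and without NB_Stim replicate 3 (0.027). With the 75th percentile the medians of A_FACS minus NB_FACS and minus NB_Control were -0.89 and -0.70. No gene was then higher in A_FACS than in NB_Control (all genes 19.6%), and NB_Stim minus NB_FACS had 2 higher and 6 lower (14.7% and 16.3%). Pairing by the replicate block gave 2 higher and 16 lower genes in NB_Control minus NB_FACS, 1 higher in NB_Stim minus NB_Control and 4 higher and 6 lower in NB_Stim minus NB_FACS, and the slide block gave 2 and 16, 1, and 3 and 7. The shares of all genes with the slide block were 20.9% and 18.1%, 2.98%, and 22.3% and 19.4%. Genes lower in A_FACS numbered 53 against NB_FACS, 40 against NB_Control and 56 against NB_Stim with the replicate block (all genes 16.7%, 27.7% and 28.1%). With the slide block they numbered 54, 38 and 58 (all genes 17.5%, 28.9% and 29.4%).

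Tukey's test gave 1 higher and 5 lower genes in NB_Control minus NB_FACS (all genes 9.67% and 8.47%). In NB_Stim minus NB_FACS 0 were lower (all genes 9.53%). For A_FACS it gave 21 lower than NB_FACS (6.55%) and 17 lower and 0 higher than NB_Control (14.5% and 10.4%). Against NB_Stim 30 were lower and 0 higher (13.5% and 10.3%). Averaging cultured replicates 1 and 2 gave 0 higher and 2 lower in NB_Control minus NB_FACS (all genes 10.7% and 10%). In NB_Stim minus NB_FACS 1 was lower (11%). For A_FACS minus NB_Control 19 were lower and 1 higher (17.3% and 13.8%). For A_FACS minus NB_Stim 28 were lower and 0 higher (16.1% and 13.1%). A required difference of 1 left 0 genes in both comparisons of cultured with sorted newborn cells, and 13, 7 and 16 lower with 0 higher in A_FACS minus NB_FACS, NB_Control and NB_Stim, beside 7.08%, 13.1% and 12.1% of all genes lower. Fitting the 2 groups alone gave 1 lower in NB_Stim minus NB_FACS (all genes 13.3%) and 22 lower in A_FACS minus NB_FACS (8.61%). It gave 1 higher in A_FACS minus NB_Control (17.5%), and 30 lower and 0 higher in A_FACS minus NB_Stim (18.3% and 14.4%). Normexp, and probes above background on all arrays, each gave 2 higher in NB_Stim minus NB_FACS (all genes 16.5% and 16.7%). In A_FACS minus NB_Control 1 gene was higher without the filter, with probes lacking a symbol, and with the brightest probe per gene (all genes 13.6%, 17.4% and 17.1%). The last gave 0 higher in A_FACS minus NB_Stim (all genes 16.7%) and turned Rps9 to -0.028 and -0.33 in these comparisons.

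Without single arrays, A_FACS minus NB_FACS had 16 to 44 genes lower (median -0.83 to -0.45), A_FACS minus NB_Control 13 to 37 lower and 0 to 2 higher (-0.65 to -0.27), and A_FACS minus NB_Stim 23 to 47 lower and 0 to 2 higher (-0.82 to -0.50), with the fewest lower genes without adult replicate 1 each time. NB_Control minus NB_FACS had 1 to 2 higher and 4 to 11 lower. NB_Stim minus NB_FACS had 1 to 3 higher and 1 to 4 lower (-0.049 to 0.043). The F test called 27 to 47 genes, where with all arrays it called 45, beside 48.8% of all genes. The range is given without shares of all genes from the same fits. It therefore cannot show whether the ribosomal protein genes stood above the background there. For the called differences of single named genes, 930 alternative values kept direction and call, 148 lost the call and 2 reversed. Some of these could hardly change. They include fits of the deposited values, which equal the scanner values, and fits without an array of a group not compared. Beside the counts without single newborn arrays, 9.81% to 14.6% of all genes were lower in A_FACS minus NB_FACS. In A_FACS minus NB_Control 19% to 25.3% were lower and 14.8% to 19.3% higher. For A_FACS minus NB_Stim it was 18.4% to 24.3% and 14.3% to 18.5%. In NB_Control minus NB_FACS 10.4% to 15.4% were lower and 11.9% to 17.8% higher. For NB_Stim minus NB_FACS it was 11.6% to 15.9% and 11.8% to 18.3%. The causes of these changes were not tested.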

Other observations

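Genes that control growth and ribosome production were counted as a further list, in which 17 of 18 genes were tested. In NB_Control against NB_FACS 5 were higher and 3 lower, beside 15.8% and 13.9% of all genes. In NB_Stim against NB_FACS 2 were higher and 2 lower (all genes 16% and 15.1%), in NB_Stim against NB_Control 1 was lower (all genes 2%), and in A_FACS against NB_FACS 2 were higher and 2 lower (all genes 9.75% and 12.9%). Myc, a transcription factor that drives ribosome production, was 10.79, 10.70 and 10.43 in NB_FACS, 8.62, 8.68 and 9.004 in NB_Control and 8.75, 8.74 and 9.01 in NB_Stim, and it fell in both cultured groups (-1.87, adjusted p 2.62e-05, and -1.81, adjusted p 3.55e-05, by limma). In A_FACS it was 11.31 and 11.08, above all newborn arrays, but the difference from NB_FACS missed the threshold (0.55, adjusted p 0.0549). Any relation of Myc to the level of the ribosomal protein genes was not tested.

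Rpl22l1, the paralog of Rpl22, was 13.31, 13.52 and 13.55 in NB_FACS and 13.30 and 13.18 in A_FACS, against 11.74, 11.96 and 12.14 in NB_Control and 12.24, 12.07 and 12.51 in NB_Stim. It fell in both cultured groups (-1.52, adjusted p 9.14e-05, and -1.19, adjusted p 0.000407), where Rpl22 itself was 0.11 and 0.39 above NB_FACS without passing the test in the fit without the replicate block. The brighter Rpl22 probe differed from NB_FACS by -0.05 in NB_Control and 0.23 in NB_Stim. The dimmer one differed by 0.26 and 0.55, and by limma only the last value was called (adjusted p 0.0497). For Rpl22l1 both cultured groups lay below both sorted groups without overlap. Eef1a1, an abundant elongation factor with a TOP start, was 14.42, 14.23 and 14.61 on the slide 2 arrays and 12.91 to 13.82 on slide 1, and was not called in any comparison, while Eef2 varied between 14.27 and 14.78 over all arrays.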
